A study of Danio rerio with 4 samples.

Results

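Retinoic acid is a small lipid made from vitamin A that binds nuclear receptors and switches genes on. Cells make it in steps: retinol is oxidized to retinaldehyde, and Aldh1a enzymes oxidize retinaldehyde to retinoic acid. Cyp26 enzymes, which are cytochromes P450, break it down, and Crabp proteins carry it inside the cell. In the zebrafish optic cup *aldh1a2* marks the dorsal and *aldh1a3* the ventral retina, and Cyp26 enzymes keep retinoic acid low where they are made. The genes described here are 9 of that system, chosen by symbol: the synthesis enzyme genes *aldh1a2* and *aldh1a3*, *dhrs3a*, whose enzyme turns retinaldehyde back into retinol, the breakdown enzyme genes *cyp26a1*, *cyp26b1* and *cyp26c1*, and the carrier genes *crabp1a*, *crabp1b* and *crabp2a*. They stand on 10 of the 31388 rows of the 36hpf table and on 10 of the 31950 rows of the 72hpf table, since *cyp26c1* has 2 rows in each.

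RNA was taken from whole eyes dissected from zebrafish embryos of the TL strain at 36hpf and 72hpf (hours post fertilization), and poly-A RNA was sequenced. There are 4 samples: at each stage, 1 of *tet2-/-;tet3-/-* mutants and 1 of siblings. The mutants carry TALEN-made frameshift alleles of *tet2* and *tet3*, whose products oxidize 5-methylcytosine to 5-hydroxymethylcytosine. The siblings were phenotypically wild-type embryos from incrosses of double heterozygotes, so they may be a mix of genotypes, and each sample is a pool of eyes. With 1 sample per genotype and stage no difference can be set against replicates and none has a p-value, and every difference below is between a pair of libraries.

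The targeted genes were not lower throughout under the mutant label. *tet2* had 9646 reads in the sibling and 12459 in the mutant library at 36hpf, and *tet3* had 8381 and 8611. Scaled to library size, the log2 ratio of mutant over sibling was 0.07 for *tet2* and -0.26 for *tet3*. At 72hpf *tet2* had an FPKM (fragments per kilobase of transcript, scaled to depth) of 33.6 and 34.1, and *tet3* of 55.9 and 37.9. The level of *tet2*, which a loss of its transcripts would lower, was thus nearly the same under both labels at both stages. It does not bear out the mutant label, while *tet3* was lower under that label at both stages. The libraries are named below by their labels, sibling-labelled or mutant-labelled. The 36hpf libraries held 88875538 and 106912677 reads. How the reads at 72hpf were split between the libraries is not given in the table, so the depth behind each FPKM value is unknown. The libraries also differed in tissue markers. At 36hpf 11 lens genes summed to 4877 CPM (reads scaled to library size) with the sibling label and 1057 with the mutant label. The sum of 13 epidermis genes was 2614 and 9884, and that of 6 hatching gland rows 72.3 and 231.4. Nearly all of the hatching gland sum under the sibling label was *cd63* (6266 and 9665 reads). The hatching gland genes *he1a* (43 and 8073 reads) and *he1b* (14 and 3431) differed far more. *cldne* of the epidermis and *he2* of the hatching gland were at 0 under the sibling label. At 72hpf the summed FPKM of 10 skeletal muscle genes was 39.2 and 222.3, that of 7 heart muscle genes 5.91 and 97.5, that of 6 red blood cell genes 396 and 1139, that of 12 epidermis genes 2324 and 4014, and that of 11 lens genes 20139 and 10729, with the heart genes *myl7* and *cmlc1* listed at 0 under the sibling label. Their part in the results below was not tested. Of all genes at 36hpf, 51.0% were above 0, 8.9% at 1 or more and 6.15% at -1 or less on the log2 scale. At 72hpf these shares were 51.9%, 3.65% and 9.02%, so most genes lay between -1 and 1 at both stages. Of genes that mark retinal progenitors, 10 of 11 lay between -1 and 1 at 36hpf, with *six6b* at -1.31, and all 11 at 72hpf. Of 5 genes listed for the ciliary margin 2 were above 0 at 36hpf (summed level 2214 and 1544 CPM), with *atoh7* at 13794 and 585 reads. All 5 were above 0 at 72hpf (summed FPKM 146 and 266). The authors describe *atoh7* as a gene of committed ganglion cell precursors. *ccnd1* (138808 and 104509 reads) had the most reads of the list. Whether *atoh7* and *ccnd1* mark the ciliary margin in these eyes was not checked. The part of these genes was not tested either.

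The genes were mixed in direction at 36hpf. Reads were scaled by TMM (a scaling factor from the bulk of genes), and a log2 fold-change is mutant-labelled over sibling-labelled. All 10 rows had at least 20 reads over both libraries, as did 21876 genes. Of the 10 rows, 1 reached a log2 fold-change of 1, against 8.9% of all genes, and 2 of -1 or less, against 6.15%. No row reached 2, against 1.77%, and 1 was at -2 or less, against 1.4%. Above 0 were 6 of the 10, against 51.0% of all genes, and the median was 0.61, against 0.01. The count of higher rows is close to the share of all genes, and that of lower rows rests on *cyp26c1_2* and *crabp1b*. The latter passed the minimum only through the sibling-labelled library. In bulk eyes, fewer cells of a type and less RNA per cell cannot be told apart.

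**Figure D1:**
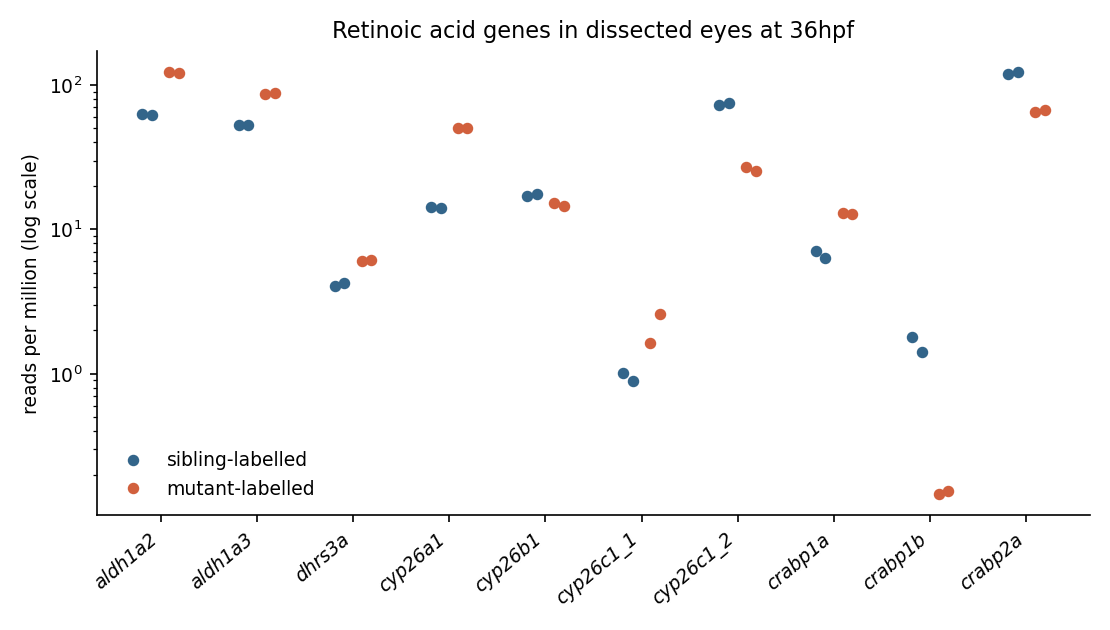
CPM of each retinoic acid gene row at 36hpf on a log scale, in sibling-labelled (blue) and mutant-labelled (orange) eyes. The authors averaged a pair of counts in each library. Points are the larger and the smaller recovered count of a row. Each is over the sum of the larger or of the smaller counts of all genes in that library. *cyp26a1* sits near 14.2 under the sibling label and 50.7 under the mutant label, and *crabp1b* goes from 1.80 and 1.41 to 0.147 and 0.155.

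Both synthesis genes were higher in mutant-labelled eyes at 36hpf. *aldh1a2*, on chromosome 7 of GRCz10 from 30055905 to 30096379, had 5566 reads with the sibling label and 13062 with the mutant label. The counts behind these sums were 3283 and 2283 with the sibling label and 8345 and 4717 with the mutant label, which is 63.0 and 62.0 against 122.3 and 121.9 CPM. Within a library the scaled counts lay close together. Larger and smaller were assigned gene by gene. Both stand under 1 sample in the labels, and what they are is not stated, so their gap is not read as replicate error. The log2 fold-change was 0.94, with an exact (Clopper-Pearson) 95% interval of 0.89 to 0.98, which covers counting error only. *aldh1a3*, on the same chromosome from 9476225 to 9558124, had 4722 and 9310 reads, or 53.1 and 53.1 against 86.5 and 88.1 CPM (0.69, interval 0.63 to 0.74). Neither passed a log2 fold of 1. Together the 2 genes had 10288 and 22372 reads, a log2 fold-change of 0.83 (interval 0.79 to 0.86), and *aldh1a2* took 54.1% (interval 53.1 to 55.1) of these reads under the sibling label and 58.4% (interval 57.7 to 59.0) under the mutant label.

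Markers of the retinal regions and of the tissue round the eye also differed between the libraries. Of all genes at this stage, 51.0% were above 0 and 8.9% at 1 or more. All 7 dorsal retina genes were above 0 at 36hpf (summed level 583 and 753 CPM), with the T-box gene *tbx5a* at 389 and 2880 reads (2.59) and *tbx5b* at 698 and 2750 (1.68). Of 7 genes listed for the ventral retina 3 were above 0 (summed level 512 and 467). These were *tbx3a* with 407 and 2088 reads (2.06), *bambia* with 3690 and 9028, and *ephb2a* with 4299 and 10259. Below 0 were the homeobox genes *vax1*, with 4844 and 2837 reads (-1.07), and *vax2* (-0.54), and *ephb2b* (-0.67) and *ephb3a* (-0.33). Whether *tbx3a* and *bambia* mark the ventral retina was not checked here. Apart from them, *ephb2a* alone was above 0, and *vax1*, *vax2*, *ephb2b* and *ephb3a* were below. The mix of directions in this list thus rests largely on where *tbx3a* and *bambia* are placed. Genes of periocular mesenchyme and neural crest had a summed level of 694 and 1664 CPM, with 12 of 14 above 0 and 3 at 1 or more. Among these were the collagen genes *col1a1a* (1.37) and *col1a2* (1.44) and the homeobox gene *prrx1b* (2.01). None of the genes measured in these 3 lists was at 0 in either library. Their part in the change of *aldh1a2* and *aldh1a3* was not tested.

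*dhrs3a* stands on chromosome 23 from 21737079 to 21748128 and had 368 reads with the sibling label and 653 with the mutant label at 36hpf. That was 4.07 and 4.24 against 6.08 and 6.15 CPM, a log2 fold-change of 0.53 (interval 0.35 to 0.72). Its paralog *dhrs3b* had 713 and 882 reads (0.01, interval -0.13 to 0.16). At 72hpf *dhrs3b* rather than *dhrs3a* had the larger change between the libraries. *dhrs3b* is not among the 9 and was named after its values were seen.

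The breakdown genes went opposite ways at 36hpf, and the shares of *cyp26a1* and *cyp26c1* in the family differed between the libraries. *cyp26a1*, on chromosome 12 from 8916917 to 8920510, had the highest log2 fold-change of the 9 genes. Its counts were 740 and 520 with the sibling label and 3411 and 1960 with the mutant label, or 14.2 and 14.1 against 50.003 and 50.7 CPM. The sums of 1260 and 5371 reads gave a log2 fold-change of 1.80 (interval 1.71 to 1.89), a 3.48-fold higher level, at rank 574 from the highest of 21876 genes. In zebrafish, *cyp26a1* is itself known to be induced by retinoic acid, which was not measured here. The summed level of 13 epidermis genes was 2614 and 9884 CPM at this stage. The part of either in the change of *cyp26a1* was not tested.

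*cyp26c1* was lower in mutant-labelled eyes. At 36hpf the table lists it on 2 rows, *cyp26c1_1* and *cyp26c1_2*, and the sources used here do not say which gene ID each stands for. The row *cyp26c1_2* held nearly all of its reads, with counts of 3808 and 2780 with the sibling label and 1831 and 990 with the mutant label. That was 73.1 and 75.6 against 26.8 and 25.6 CPM. Its 6588 and 2821 reads gave a log2 fold-change of -1.52 (interval -1.58 to -1.45), a 2.86-fold lower level, at rank 610 from the lowest. The row *cyp26c1_1* had 86 and 211 reads (just under a log2 fold of 1, with an interval of 0.63 to 1.38). Its mutant-labelled counts were 111 and 100. The larger was 52.6% of the sum (interval 45.6 to 59.5), where the larger counts held 63.8% of all mutant-labelled reads, so the counts of this row were split otherwise than the library, beyond counting error. Reads of the rows may be shared, which makes each single value uncertain. With the rows summed, *cyp26c1* had 6674 and 3032 reads (-1.43, interval -1.49 to -1.37).

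*cyp26b1*, on chromosome 7 from 25052584 to 25077440, had 1528 reads with the sibling label and 1612 with the mutant label. In CPM these were 16.9 and 17.6 against 15.3 and 14.6 (-0.22, interval -0.32 to -0.12). The Cyp26 genes together had 9462 and 10015 reads, a log2 fold-change of -0.21 (interval -0.25 to -0.17). Of these reads, *cyp26a1* took 13.3% (interval 12.6 to 14.02) under the sibling label and 53.6% (interval 52.6 to 54.6) under the mutant label. *cyp26c1* took 70.5% (interval 69.6 to 71.5) and 30.3% (interval 29.4 to 31.2). The share of *cyp26b1* was 16.1% in both. Reads are not scaled to gene length at 36hpf, so a share can be compared between libraries but not between genes.

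**Figure D2:**
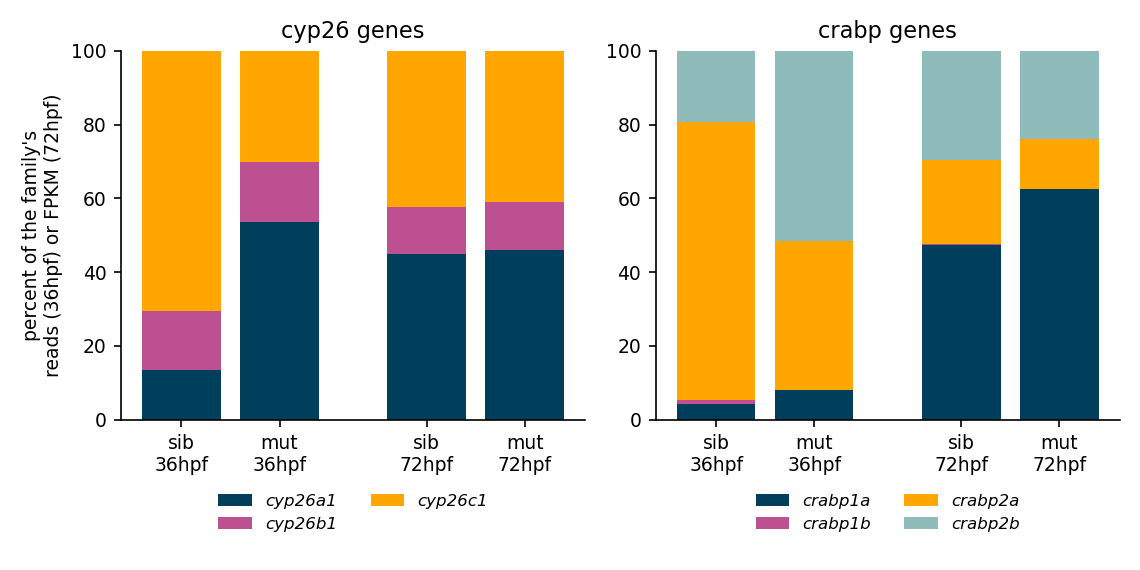
Each gene's percent of its family's reads at 36hpf and of its family's FPKM at 72hpf, in the sibling-labelled (sib) and mutant-labelled (mut) library of each stage; bars sum to 100 and *crabp2b* is added to complete the carrier family. At 36hpf *cyp26a1* goes from 13.3% to 53.6%, and at 72hpf from 45.0% to 46.1%.

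The carrier genes also split at 36hpf. *crabp1b*, on chromosome 7 from 48047160 to 48069974, had the lowest log2 fold-change of the 9 genes. It had counts of 94 and 52 with the sibling label and 10 and 6 with the mutant label. In CPM these were 1.80 and 1.41 against 0.147 and 0.155. The 146 and 16 reads gave a log2 fold-change of -3.44 (interval -4.33 to -2.74), an 11.2-fold lower level, at rank 86 from the lowest of 21876 genes. Its paralog *crabp1a*, on chromosome 25 from 6179482 to 6209978, went the other way, with 604 and 1380 reads (0.90, interval 0.76 to 1.04). Its counts were 7.12 and 6.33 CPM under the sibling label and 12.99 and 12.8 under the mutant label.

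*crabp2a*, on chromosome 16 from 14493358 to 14506883, had 10766 reads with the sibling label and 7000 with the mutant label. The counts were 119.6 and 123.3 against 64.7 and 66.9 CPM (-0.92, interval -0.96 to -0.87). *crabp2b*, the remaining carrier gene of the family and not among the 9, had 2778 and 8947 reads (1.39, interval 1.33 to 1.46). The 4 carrier genes together had 14294 and 17343 reads, a log2 fold-change of -0.02 (interval -0.05 to 0.02). The share of *crabp2a* in them was 75.3% (interval 74.6 to 76.0) and 40.4% (interval 39.6 to 41.1), and that of *crabp2b* 19.4% (interval 18.8 to 20.1) and 51.6% (interval 50.8 to 52.3). Paralogs of this kind can share reads.

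At 72hpf nearly all of the measured genes were somewhat higher in mutant-labelled eyes. The values are FPKM, 1 per gene and library, and a log2 difference is log2(FPKM + 1) under the mutant label less that under the sibling label, which understates the change of low genes. Of the 10 rows 8 reached an FPKM of 1 in 1 library or both, as did 17307 genes in all. *crabp1b* did not, with 0.132 in sibling-labelled eyes and a listed value of 0 in mutant-labelled eyes, and a *cyp26c1* row was listed at 0 in both. Of the 8, 7 were above 0, against 51.9% of all genes, with a median of 0.53, against 0.02. A difference of 1 or more had 1 of the 8, against 3.65% of all genes, and none was at -1 or less, against 9.02%. None was at 2 or more (0.254% of all genes) or at -2 or less (1.77%). No row passed the minimum through a single library.

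*aldh1a3* was the gene past a difference of 1 at 72hpf. It had an FPKM of 5.01 under the sibling label and 15.6 under the mutant label, a 3.12-fold higher value (log2 difference 1.47), at rank 141 from the highest of 17307 genes. *aldh1a2* had 10.8 and 16.6, a 1.54-fold higher value (0.58). Their sum was 15.8 and 32.2, and the share of *aldh1a3* in it 31.7% and 48.4%. *dhrs3a* had 4.33 and 4.48 (0.04), and *dhrs3b* 7.91 and 12.0 (0.55). At this stage 13 of 14 genes of periocular mesenchyme and neural crest were above 0 and 5 at 1 or more (summed FPKM 464 and 657, none listed at 0). The shares of all genes were 51.9% and 3.65%. In the periocular list *foxd3* (0.515 and 1.68) passed the minimum only through the mutant-labelled library, which fixes its direction. Of the dorsal retina genes 3 of 7 were above 0 (summed FPKM 220 and 172), and of those listed for the ventral retina 4 of 7 (131 and 148). The latter list again holds *tbx3a* and *bambia*, whose place was not checked. Of 8 pigment epithelium genes 6 were above 0 at 72hpf (summed FPKM 513 and 689) and 3 at 36hpf (summed level 2987 and 2870 CPM). Lists of endothelium and leukocyte genes were also drawn up and are not described. The part of all these markers in the change of *aldh1a3* was not tested.

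The Cyp26 genes were all higher at 72hpf, by similar factors. *cyp26a1* had an FPKM of 14.8 under the sibling label and 22.3 under the mutant label (1.51-fold, log2 difference 0.56). *cyp26b1* had 4.15 and 6.21 (log2 difference 0.49). *cyp26c1*, on chromosome 17 from 19493734 to 19515492, had 13.9 and 19.9 on the row ENSDARG00000056029 (1.43-fold, 0.49), and the row listed at 0, ENSDARG00000097644, has the same coordinates. The family's summed FPKM was 32.8 and 48.5, a 1.48-fold higher value. Within it *cyp26a1* held 45.0% and 46.1%, *cyp26b1* 12.6% and 12.8%, and *cyp26c1* 42.4% and 41.1%. The make-up of the family was thus nearly the same in both libraries at 72hpf, where at 36hpf it had differed. Shares of reads and of FPKM are not on the same scale, and the difference between the stages was not tested.

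Among the carriers at 72hpf, *crabp1a* had an FPKM of 31.6 and 51.3 (1.62-fold, log2 difference 0.68) and *crabp2a* of 15.2 and 11.1 (-0.42). *crabp2b* stood at 19.8 and 19.7. Scaled to length, the order of levels in sibling-labelled eyes was *crabp1a*, *crabp2a*, *cyp26a1*, *cyp26c1*, *aldh1a2*, *aldh1a3*, *dhrs3a* and *cyp26b1*. In mutant-labelled eyes *crabp2a* stood below *cyp26a1*, *cyp26c1*, *aldh1a2* and *aldh1a3*. With no replicates, whether neighbours in either order differ beyond the spread of samples cannot be judged.

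**Figure D3:**
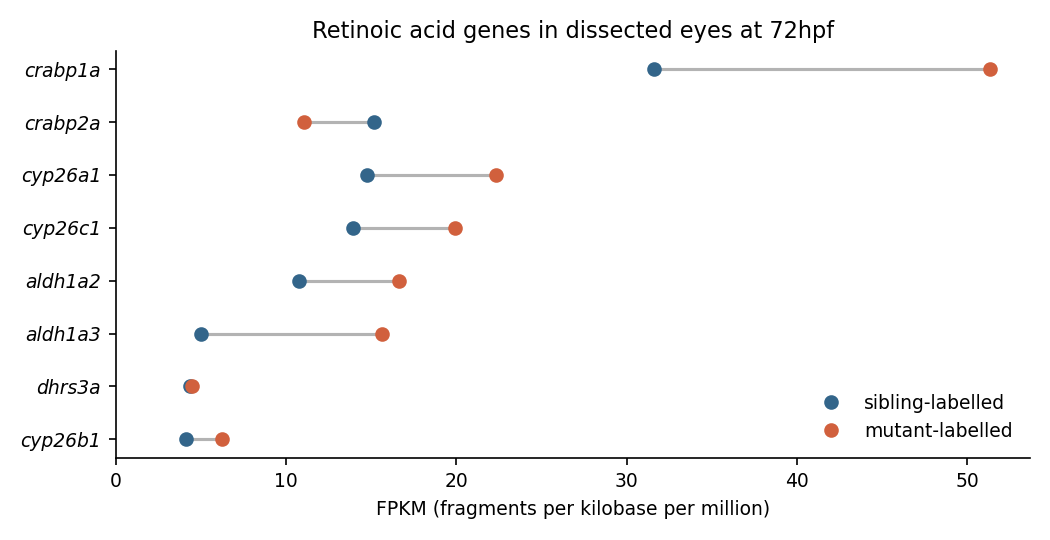
FPKM of the 8 measured retinoic acid gene rows at 72hpf, 1 value per library, with a grey line joining sibling-labelled (blue) to mutant-labelled (orange) eyes. The longest steps upward are those of *crabp1a* (31.6 to 51.3) and *aldh1a3* (5.01 to 15.6), and *crabp2a* is the gene with a lower mutant-labelled value (15.2 to 11.1).

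Side by side, 7 of the 9 genes had 1 measured row at both stages. *aldh1a2*, *aldh1a3*, *dhrs3a*, *cyp26a1* and *crabp1a* were above 0 at both, *crabp2a* was below 0 at both, and *cyp26b1* changed sign (-0.22 and 0.49). The same sign was found for 6 of 7, against 55.5% of the 15441 genes measured once at both stages. The stages were processed by different pipelines, so sizes are not compared between them. *cyp26c1* had a lower level at 36hpf in mutant-labelled eyes (-1.43 for its summed rows) and a higher FPKM at 72hpf (0.49).

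**Figure D4:**
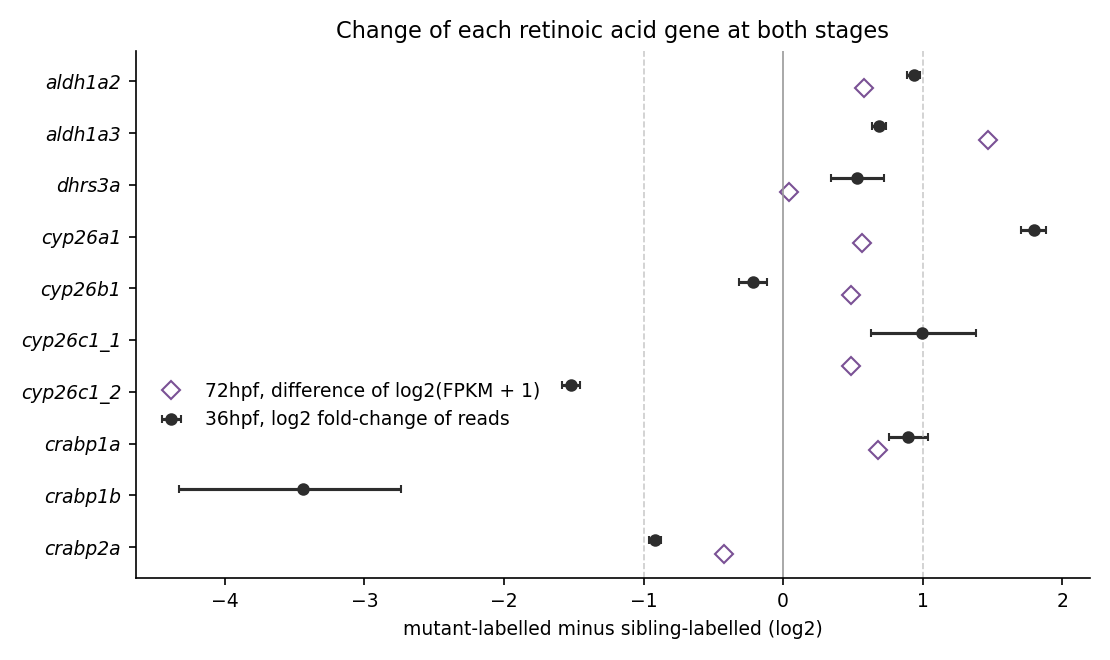
Log2 change of each row, mutant-labelled minus sibling-labelled: filled points are reads at 36hpf with exact 95% intervals for counting error, open diamonds are differences of log2(FPKM + 1) at 72hpf, which have no interval. Dashed lines mark a log2 fold of 1, and the 72hpf value of *cyp26c1* (0.49) is drawn between its 36hpf rows; *crabp1b* has no 72hpf point.

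The wider pathway was described from lists of genes by role. Of all genes at 36hpf, 51.0% were above 0, 8.9% at 1 or more and 6.15% at -1 or less. At 72hpf these shares were 51.9%, 3.65% and 9.02%. Vitamin A reaches eye cells bound to Rbp4 and through the receptor Stra6. Of 13 measured genes of uptake, storage and retinol binding at 36hpf, 1 was at 1 or above and 1 at -1 or below, and the median was -0.33. *rbp2a*, a cellular retinol-binding protein gene, had 419 reads with the sibling label and 25 with the mutant label (-4.33, interval -5.01 to -3.78). *lrata*, whose enzyme stores retinol as esters, had 102 and 486 (1.95, interval 1.65 to 2.28). *stra6*, named after its values were seen, had 8085 and 7033 reads (-0.50). At 72hpf 10 genes of the list were measured and 1 was at -1 or less, again *rbp2a* (FPKM 45.3 and 15.3, log2 difference -1.51), while *lrata* had 2.86 and 1.23 (-0.79).

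Of 17 measured genes of retinol and retinaldehyde oxidation and reduction, 13 were above 0 at 36hpf, 2 at 1 or above and 1 at -1 or below, and the median was 0.32. *rdh10a*, whose enzyme makes the retinaldehyde that Aldh1a enzymes use, had 9393 and 23035 reads (just under a log2 fold of 1, with an interval of 0.97 to 1.03). It had an FPKM of 25.1 and 48.8 at 72hpf (0.93). Past the fold were *sdr16c5a* (1104 and 3046 reads, 1.17) and *dhrs9* (69 and 210 reads, 1.31), both of the short-chain dehydrogenase family. The gene at -1 or less was *aldh8a1*, with 36 and 9 reads (-2.23, interval -3.53 to -1.21). *rdh10a*, *dhrs9* and *aldh8a1* were singled out after their values were seen, and *aldh8a1* passed the minimum only through the sibling-labelled library. At 72hpf, of 15 measured, 2 reached 1 and 2 reached -1. The higher ones were the alcohol dehydrogenase genes *adh5* (FPKM 39.7 and 82.2) and *adh8b* (13.5 and 31.3). The lower ones were *rdh8b*, a retinol dehydrogenase gene (17.6 and 5.44, -1.53), and *rdh14a* (16.05 and 7.22, -1.05), the latter named after its value was seen.

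Of 12 nuclear receptor genes 9 were above 0 at 36hpf, 1 was at 1 or above and none at -1 or below, and the median was 0.23. The retinoid X receptor gene *rxraa* had 1368 reads with the sibling label and 5591 with the mutant label (1.74, interval 1.65 to 1.82). At 72hpf its FPKM was 12.0 and 6.51 (-0.79). *rarga*, a retinoic acid receptor gene, was named after its values were seen because it was higher at both stages, with 2112 and 4818 reads (0.90) and an FPKM of 13.2 and 25.6 (0.91). Of 11 receptor genes at 72hpf 1 was at 1 or more, *rargb* (1.58 and 4.49, 1.09), and the median was -0.17. All 10 corepressor and coactivator genes lay between -1 and 1 at both stages, from -0.33 to 0.18 at 36hpf.

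Of genes known to respond to retinoic acid, 13 were measured at 36hpf, with 9 above 0, 2 at 1 or more, 2 at -1 or less and a median of 0.49. *znf703*, a zinc finger gene, had 1663 and 4549 reads (1.16, interval 1.08 to 1.24), and *hoxb1b* had 3 and 32 reads, named after its value was seen (2.94, interval 1.44 to 5.47). The Hox genes *hoxb4a* (39 and 1 reads, -4.96, interval -10.92 to -3.02) and *hoxd4a* (54 and 1 reads, -5.43, interval -11.38 to -3.51) were lower. Of these 4 genes past the fold, *hoxb1b*, *hoxb4a* and *hoxd4a* passed the minimum of reads only through the library where they are high, which fixes their direction. Of 9 hindbrain and caudal brain genes found in the table, 6 were measured at 36hpf, with 2 above 0 (summed level 86.0 and 53.7 CPM). Nearly all of that sum was *pax2a* (5534 and 4179 reads) and *mafba* (1668 and 1330). Whether *pax2a* marks the hindbrain in dissected eyes was not checked. *hoxa2b* and *hoxb2a* had 0 reads in both libraries, *hoxb1a* was at 0 under the sibling label, and *hoxb3a* had 199 and 0 reads. Like *hoxb4a*, *hoxb3a* and *egr2b* (7 and 48 reads) passed the minimum only through the library where they are high, which fixes their direction. At 72hpf 4 of 6 measured genes of this list were above 0 and 2 at 1 or more, *hoxa2b* (FPKM 0.210 and 2.12) and *hoxb3a* (0.565 and 2.43), and the summed FPKM was 33.6 and 36.8. Most of that sum was *gbx2* (24.1 and 22.7). *hoxa2b*, *hoxb3a* and *hoxb2a* (0.206 and 1.09) passed the minimum only through the mutant-labelled library, which fixes their direction. The part of the hindbrain and caudal brain genes in the Hox values was not tested. At 72hpf 9 response genes were measured, with 5 above 0, none at 1 or more and 1 at -1 or less, *nr2f1a*, an orphan nuclear receptor gene (FPKM 68.1 and 29.4, -1.18).

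**Figure D5:**
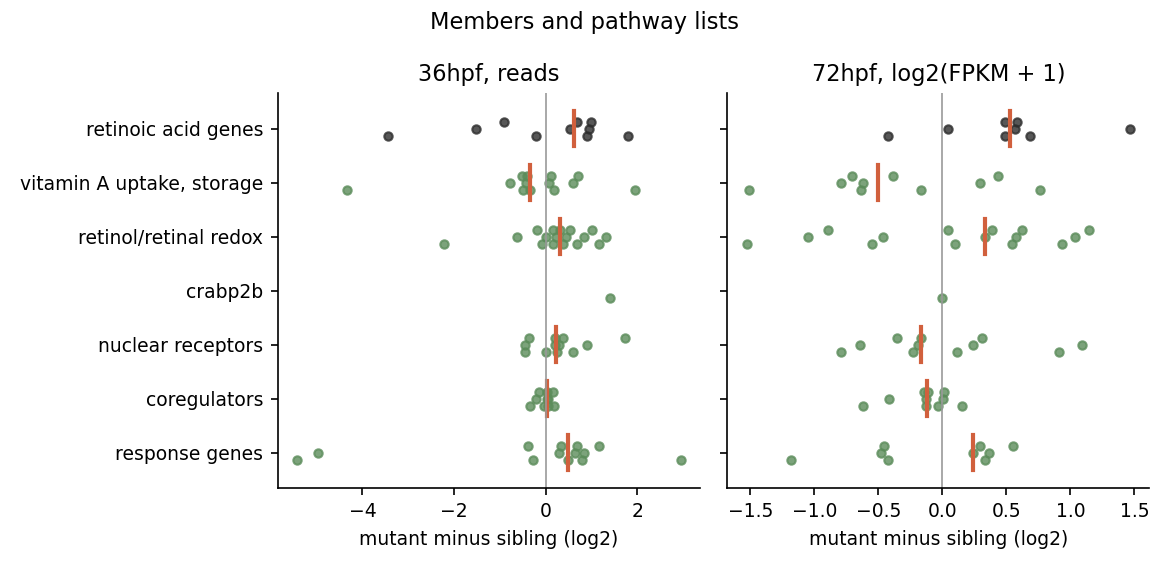
Log2 change of every measured gene in the 9 retinoic acid genes and in the lists of the wider pathway, at 36hpf (reads, left) and 72hpf (log2(FPKM + 1), right), with orange bars at the median; the axes have different ranges. The members' medians are 0.61 and 0.53, and points of 1 list spread to both sides of 0 at 36hpf in all lists but that of *crabp2b* alone.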

How the data were processed

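The authors dissected whole eyes, extracted RNA, captured poly-A RNA and sequenced it paired-end. For 36hpf they mapped to GRCz10 and counted with CLC Genomics Workbench, and deposited expected counts, each the mean of 2 whole read counts although the header says FPKM, with the mean log2 of the same counts. The sources used here do not state the nature of the 2 counts. They were summed and treated as 1 sample. Both whole counts were recovered from the sum and the log2 mean for 30213 genes with the sibling label and 30156 with the mutant label, among them all 10 rows described. They were sorted into larger and smaller gene by gene, so the larger counts of different genes need not share a source. For 72hpf the authors deposited FPKM, made with TopHat and the Cufflinks package. Aligner versions and the annotation are not stated there. A table of the authors' own fold-changes at 72hpf was not used, nor were the fold-change columns at 36hpf.

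Sums were scaled by TMM (edgeR 4.0.16), with 0.5 reads added to each, scaled to depth, and a minimum of 20 reads over both libraries. Exact 95% intervals (scipy 1.17.1) leave out all but counting error, and reads carried no molecular identifiers. At 72hpf 1 FPKM was added and genes below an FPKM of 1 in both libraries were left out. No test was run, as each group is 1 sample. The steps were tested on simulated counts with counting error alone. Those counts hold no spread between samples and no tissue differences, so they test the arithmetic and not the results. Symbols matched exactly, and list genes on several rows were left out, except *ctslb* of the hatching gland, whose rows were listed singly. The rule for naming took the 9 genes, up to 4 genes per list past a log2 fold of 1 with the most reads, and the genes nearest to a member. Not all genes of the marker lists that the rule took are named. Other genes were named after their values were seen. That is said beside them, except for some genes of the marker lists, such as *vax2*, *ephb2a*, *bambia*, *cd63* and *cldne*. Members and lists were chosen with earlier results of these data known. Alternatives were other scalings (totals, DESeq2 1.42.0 size factors, upper quartile), added values, minimums, and the larger or the smaller count of each gene alone. No sequences are shown.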

Additional observations from a re-analysis of the deposited data

Results flagged for a closer look

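*cyp26b1* was lower in mutant-labelled eyes at 36hpf (log2 fold-change -0.22) and higher at 72hpf (log2 difference 0.49), opposite directions at the 2 stages. The difference between the stages was not tested, and the stages differ in pipeline and unit.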

How the results depend on the processing

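At 36hpf all 10 rows kept their sign under up to 10 alternatives, and 8 kept their side of a log2 fold of 1. *crabp2a* ranged from -1.03 to -0.89 and *cyp26c1_1* from 0.65 to 1.48. Above 1 stood 2 rows in place of 1 with library totals only, and 2 with the smaller of the 2 counts alone. Relative to the retinal progenitor list, an alternative chosen after seeing the data like the summing of the *cyp26c1* rows, 3 rows were at -1 or less in place of 2. At 72hpf all 8 rows kept their sign and side under up to 6 alternatives. *aldh1a3* ranged from 1.45 to 1.65, and the median from 0.49 to 0.71. Rows with a low FPKM and with few reads, such as *crabp1b*, are limited by depth. No replicate could be left out and no paired analysis was possible because each group is 1 sample.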

Other observations

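The genes whose pair of changes (36hpf log2 fold-change, 72hpf log2 difference) lay nearest to that of a member past the fold were looked up among 9405 genes with at least 100 reads and an FPKM of at least 5. Nearest to *aldh1a3* were the chemokine receptor gene *ackr3b* (0.72 and 1.43) and the globin gene *hbae3* (0.70 and 1.40), a red blood cell marker whose close paralogs can share reads. The summed FPKM of the red blood cell list was 396 and 1139 at 72hpf, and its part in this likeness was not tested. Nearest to *cyp26a1* were the calpain gene *capn2l* (1.78 and 0.57) and the annexin gene *anxa1a* (1.78 and 0.59). The epidermis list had medians of 1.87 and 0.42, and its part in the likeness to *cyp26a1* was not tested. The likeness rests on a pair of values per gene.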
